A study of Mus musculus with 6 samples.

Results

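A set of 10 genes that tell the resident macrophages of the liver from recruited ones was read in livers of mice overdosed with acetaminophen (APAP) and of control mice given saline. They were the rows of the gene table whose symbol matched a list of 5 Kupffer cell genes (Clec4f, Vsig4, Timd4, Cd5l and Marco) and 5 monocyte and recruited macrophage genes (Chil3, Ly6c2, Ccr2, Lyz2 and Gpnmb). All 10 were among the 34745 genes listed, and all 10 passed the filter on low counts, which kept 13734 genes. The RNA-Seq was of whole WT livers from fasted mice (12 hours), 3 of which had received saline and 3 APAP (300 mg/kg, i.p.) for 12 hours. The Methods name male C57BL/6J mice aged 8 to 10 weeks. The table holds APAP replicates 1 and 3, and APAP replicate 2 was not analysed here. Its other columns, WT1, WT2 and WT3, have no label of their own. They were taken for the saline livers, as the only group whose name the table does not show, and all fold changes depend on this.

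Kupffer cells are the macrophages that live in the liver sinusoids, where they maintain themselves and clear particles, bacteria and aged red blood cells from portal blood. After hepatocyte necrosis, monocytes leave the bone marrow, enter the injured lobule through the receptor CCR2, and mature into macrophages that remove debris. These populations are told apart by surface receptors and secreted proteins, which the 10 genes encode.

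Libraries held 13378445 to 15976339 counts. Levels are given as CPM, counts scaled to a common library size after TMM normalization for composition, and the detection floor of 3 counts was worth 0.176 to 0.269 CPM. The log2 fold change is APAP minus saline. Genes were called at an adjusted p under 0.05 (edgeR quasi-likelihood test, Benjamini-Hochberg adjustment over all tested genes). Of all tested genes, 3.7% were called higher and 3.53% were called lower with APAP. As a check of the libraries, Xist measured 0.764 and 1.73 CPM with APAP against 289.6, 914 and 882 CPM in saline, and the Y-linked gene Ddx3y had 1344 and 998 counts against 0, 0 and 1. High Xist with almost no Y-linked counts is the pattern of female tissue, so the 3 WT columns go against the male mice that the Methods name, which adds doubt to their reading as the saline livers. The groups thus differ in this pattern of sex as well as in treatment. Treatment and sex cannot be told apart in these 5 libraries for any gene, sex-linked or not.

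Chil3 and Ccr2, both of the monocyte list, were the only members called, and both were higher with APAP. None of the 5 Kupffer cell genes was called in either direction. By the thresholds of the study, an unadjusted P under 0.05 and a fold change of at least 1.5, 4 members were higher (Chil3, Ccr2, Gpnmb and Marco) and none was lower. Among all tested genes, 12.3% were higher and 11.2% were lower by those thresholds. The same 4 members were higher in both APAP libraries than in any saline library, and Vsig4 was lower in both. The groups failed to overlap in the same way for 24% of all tested genes with APAP higher and for 20.1% with APAP lower. The median log2 fold change was -0.06 over the 5 Kupffer cell genes and 1.65 over the 5 monocyte genes, against 0.03 over all tested genes. The sign of the Kupffer cell median turned on 1 library, at 0.49 without APAP replicate 1, 0.06 without WT1 and -0.58 without APAP replicate 3, while the monocyte median lay between 1.26 and 1.95 with any 1 library left out.

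**Figure D1:**
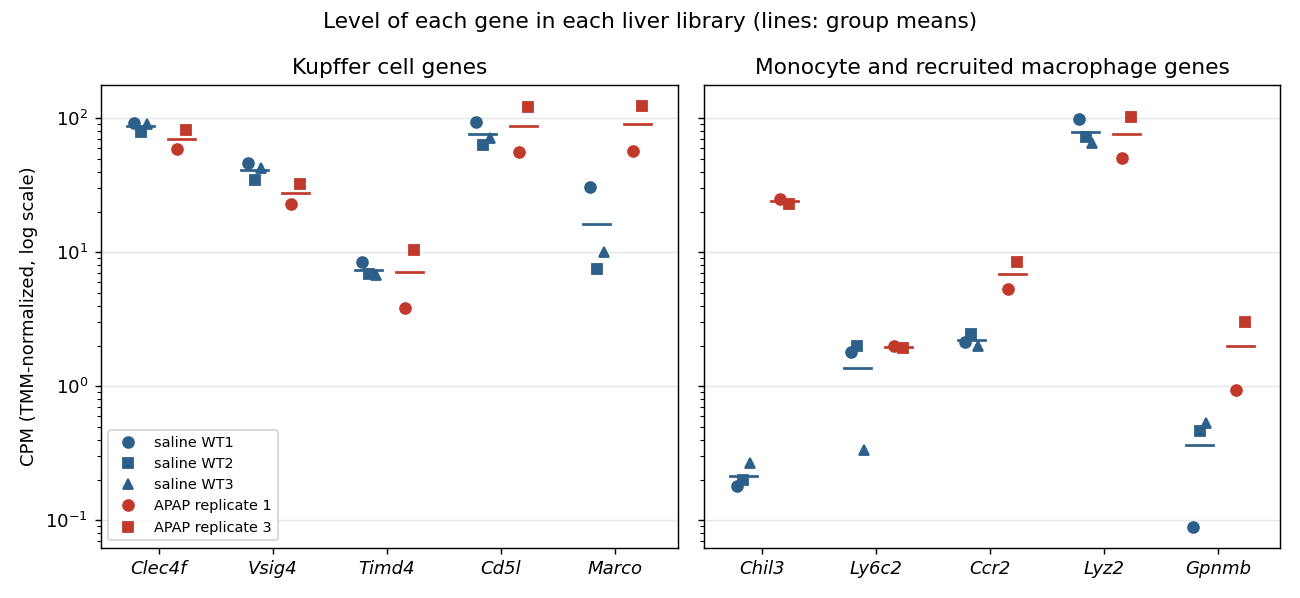
Level of each gene in CPM (TMM-normalized, log scale) in the 3 saline libraries (blue) and the 2 APAP libraries (red), with lines at the group means. Chil3 moved from 0.179 to 0.267 CPM in saline to 23.0 and 24.9 CPM with APAP, while Clec4f, Timd4, Cd5l and Lyz2 overlapped between the groups.

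**Figure D2:**
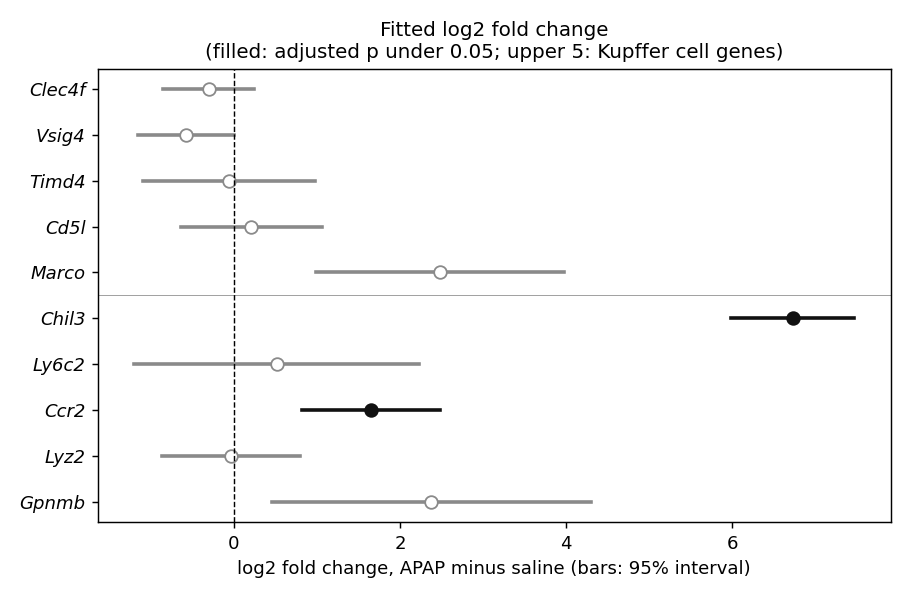
Fitted log2 fold change (APAP minus saline) of each gene with its 95% interval from the quasi-likelihood fit, Kupffer cell genes above the line and monocyte genes below it. Filled points mark Chil3 and Ccr2, the 2 genes with an adjusted p under 0.05. The interval of Vsig4 reaches 0.00 at its upper end.

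The upstream regions of 4 members are shown. Chil3 and Ccr2 were taken as the monocyte genes that were called. Marco and Vsig4, neither of them called, were taken as Kupffer cell genes on opposite sides of the saline range. The sequences are the 250 bases before the annotated start site in RefSeq (GRCm38.p6), read 5′ to 3′ on the strand of the gene. They lie at chr3:106167565-106167814 (Chil3, minus strand), chr9:124101933-124102182 (Ccr2, plus strand), chr1:120505025-120505274 (Marco, minus strand) and chrX:96293439-96293688 (Vsig4, minus strand). For Ccr2 the annotations disagree. By the position given for it below, Ccr2 starts at 124101950, so most of its window lies inside the gene and not before it. Capitals mark GAGGAA, a sequence that the macrophage factor PU.1 binds.
Chil3: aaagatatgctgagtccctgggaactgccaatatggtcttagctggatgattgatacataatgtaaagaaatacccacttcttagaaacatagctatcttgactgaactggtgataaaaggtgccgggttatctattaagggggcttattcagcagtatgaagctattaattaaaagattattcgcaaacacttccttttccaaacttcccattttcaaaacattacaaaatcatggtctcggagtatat
Ccr2: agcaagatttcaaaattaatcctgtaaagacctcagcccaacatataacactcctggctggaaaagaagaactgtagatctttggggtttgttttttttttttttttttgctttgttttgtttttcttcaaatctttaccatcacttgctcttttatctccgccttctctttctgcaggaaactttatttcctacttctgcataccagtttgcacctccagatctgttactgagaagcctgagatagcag
Marco: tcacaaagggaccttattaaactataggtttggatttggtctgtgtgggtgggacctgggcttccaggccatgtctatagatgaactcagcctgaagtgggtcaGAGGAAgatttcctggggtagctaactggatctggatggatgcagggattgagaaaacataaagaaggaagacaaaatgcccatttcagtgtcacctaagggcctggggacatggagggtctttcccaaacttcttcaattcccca
Vsig4: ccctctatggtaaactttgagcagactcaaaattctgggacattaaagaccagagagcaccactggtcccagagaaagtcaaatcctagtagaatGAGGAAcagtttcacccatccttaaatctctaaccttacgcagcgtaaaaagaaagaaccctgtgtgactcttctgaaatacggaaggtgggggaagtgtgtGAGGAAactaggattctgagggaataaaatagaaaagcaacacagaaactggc
All 10 genes had such a window, and Ly6c2 had 2 of them. On either strand, GAGGAA was found in 5 of the 11 windows, those of Vsig4 (155 and 53 bases before the start site), Marco (146 bases), Cd5l (66 bases, minus strand of the gene) and both of Ly6c2. The windows of Ly6c2 overlap, and the same site (142 and 108 bases before their start sites) was counted in both. Of 32851 mouse windows of the same length, 23.25% held GAGGAA. The windows of Chil3 and Ccr2 held no GAGGAA, and shorter or variant forms of it were not searched. TGANTCA (AP-1), TTGCNNAA (C/EBP) and TATAAA (the TATA box), also searched on both strands, were in 0 of the 11 windows, against 6.75%, 9.56% and 12.37% of all windows. No 2 of these 4 motifs contain each other. A match describes letters in the window and not a bound site.

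Of the Kupffer cell genes, Clec4f encodes the C-type lectin receptor that in mice is confined to these cells among macrophages. Clec4f (chromosome 6, 83644542 to 83656187, GRCm38 as all positions here) measured 58.9 and 82.3 CPM in APAP replicates 1 and 3, against 91.8, 78.7 and 90.8 CPM in WT1, WT2 and WT3. APAP replicate 3 lay within the saline range and APAP replicate 1 below it. The log2 fold change was -0.30 ± 0.23 (SE, 95% interval -0.85 to 0.25, adjusted p = 0.471), so the interval holds both a rise and a fall. In a bulk sample, fewer cells of a type and less RNA per cell cannot be told apart.

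Vsig4 encodes the complement receptor of the immunoglobulin family with which Kupffer cells capture opsonized bacteria. Vsig4 (chromosome X, 96247203 to 96293438) measured 22.9 and 32.1 CPM with APAP, against 46.2, 34.4 and 42.4 CPM in saline. Both APAP values were below the lowest saline value, APAP replicate 3 by a small margin. Its fitted log2 fold change was -0.57 ± 0.24 (SE, 95% interval -1.15 to 0.00, adjusted p = 0.203), which did not pass the test.

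Timd4 encodes the phosphatidylserine receptor TIM4, which binds apoptotic cells and marks long-lived resident macrophages. Timd4 (chromosome 11, 46810800 to 46844332) measured 3.82 and 10.4 CPM with APAP, against 8.51, 6.91 and 6.81 CPM in saline. The APAP libraries lay on either side of all saline libraries. Timd4 had a log2 fold change of -0.06 ± 0.44 (SE, 95% interval -1.10 to 0.97, adjusted p = 0.95).

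Cd5l encodes AIM, a scavenger receptor family protein that macrophages secrete into the blood. Cd5l (chromosome 3, 87357881 to 87371073) measured 55.6 and 120 CPM with APAP, against 93.8, 63.6 and 70.9 CPM in saline. As with Timd4, APAP replicate 1 was the lowest and APAP replicate 3 the highest of the 5 libraries. For Cd5l it was 0.21 ± 0.36 (SE, 95% interval -0.64 to 1.06, adjusted p = 0.763).

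Marco encodes a class A scavenger receptor for bacteria and particles. It was the Kupffer cell gene with the highest fold change. Marco (chromosome 1, 120474538 to 120505024) measured 56.7 and 123 CPM with APAP, against 30.9, 7.51 and 10.1 CPM in saline. Both APAP libraries were above every saline library, and WT1 stood well above the other saline libraries. The means differed 5.57-fold, with a log2 fold change of 2.49 ± 0.63 (SE, 95% interval 0.99 to 3.98). The adjusted p was 0.0625 (edgeR quasi-likelihood test), so Marco was not called. Without WT1 the log2 fold change was 3.36 and Marco was called (adjusted p = 0.0260), and without APAP replicate 3 it was 1.80 (adjusted p = 0.240). Over all other alternatives the adjusted p lay between 0.00203 and 0.172. It was under 0.05 in 6 of the 8 that kept all libraries.

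Of the monocyte genes, Chil3 encodes the chitinase-like lectin Ym1, a secreted protein of monocytes, alternatively activated macrophages and neutrophil precursors. Chil3 (chromosome 3, 106147554 to 106167564) had 423 and 372 counts with APAP, and 2, 3 and 4 counts in saline. These were 24.9 and 23.0 CPM against 0.179, 0.199 and 0.267 CPM. The APAP libraries were close to each other and the saline libraries were near the floor. The summed counts per unit of normalized depth differed 109.6-fold, with an exact 95% interval of 57.4 to 240.5 that covers counting error only. The log2 fold change was 6.73 ± 0.31 (SE, 95% interval 5.98 to 7.47, adjusted p = 5.83e-04), and 47 of the 13734 tested genes had a higher one. With any 1 library left out it stayed between 6.65 and 6.91 and Chil3 was called each time.

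Ccr2 encodes the receptor for CCL2 and CCL7 by which inflammatory monocytes leave the bone marrow. Ccr2 (chromosome 9, 124101950 to 124113557) measured 5.35 and 8.53 CPM with APAP, against 2.15, 2.46 and 2.004 CPM in saline. Both APAP libraries were more than 2 times as high as any saline library. The means differed 3.15-fold, with a log2 fold change of 1.65 ± 0.35 (SE, 95% interval 0.82 to 2.48, adjusted p = 0.0401). The call was lost with any 1 of the 5 libraries left out (adjusted p from 0.0807 without WT3 to 0.212 without APAP replicate 3), and the log2 fold change lay between 1.26 and 1.95.

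Ly6c2 encodes the surface antigen by which classical monocytes are sorted. Ly6c2 (chromosome 15, 75108158 to 75111970) had 34 and 31 counts with APAP, and 20, 30 and 5 counts in saline, or 1.998 and 1.92 CPM against 1.79, 1.99 and 0.334 CPM. WT3 stood below the other 4 libraries, which lay together. Its log2 fold change was 0.52 ± 0.72 (SE, 95% interval -1.20 to 2.23, adjusted p = 0.707), and the interval holds both a loss and a rise like that of Ccr2.

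Lyz2 encodes lysozyme, an enzyme of monocytes, neutrophils and nearly all macrophages. Lyz2 (chromosome 10, 117277334 to 117282274) measured 50.2 and 103 CPM with APAP, against 98.5, 72.3 and 64.8 CPM in saline. The APAP libraries again lay on either side of the saline libraries. Lyz2 had a log2 fold change of -0.04 ± 0.35 (SE, 95% interval -0.87 to 0.80, adjusted p = 0.964).

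Gpnmb encodes a lysosome-associated glycoprotein of lipid-laden and phagocytic macrophages. Gpnmb (chromosome 6, 49036546 to 49070929) had 16 and 49 counts with APAP, and 1, 7 and 8 counts in saline, or 0.940 and 3.03 CPM against 0.0896, 0.465 and 0.534 CPM. Both APAP libraries were above the saline libraries, and APAP replicate 3 was about 3 times APAP replicate 1. The summed counts per unit of normalized depth differed 5.04-fold (exact 95% interval 2.88 to 9.33, counting error only). On the log2 scale the fitted difference was 2.38 ± 0.81 (SE, 95% interval 0.46 to 4.29, adjusted p = 0.13), which did not pass the test, and it was 1.30 without APAP replicate 3.

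Scaling moved the direction of 3 members. With library size only in place of TMM, the median log2 fold change of all tested genes shifted from 0.03 to 0.42, and that of Clec4f became 0.08, of Timd4 0.29 and of Lyz2 0.34. Each of these remained below the shifted median. The median became 0.29 over the 5 Kupffer cell genes, also below it, and 2.01 over the 5 monocyte genes, above it. The share of all calls that were higher rose from 51.2% to 77.8%.

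Counts of 2 genes in the same library can be compared without any scaling. Per count of Clec4f, Marco had 0.963 and 1.5 counts with APAP and 0.337, 0.0954 and 0.111 counts in saline. Marco had fewer counts than Clec4f in each saline library, and about as many or more in the APAP libraries. Vsig4 had 0.388 and 0.390 counts per count of Clec4f with APAP, against 0.503, 0.437 and 0.467 in saline. Cd5l (0.944 and 1.46 against 1.02, 0.808 and 0.781) and Timd4 (0.0649 and 0.126 against 0.0928, 0.0878 and 0.0751) overlapped between the groups on this scale as well. Clec4f had 2.27 and 1.85 counts per count of Csf1r, the receptor for the growth factor of all macrophages, with APAP, and 1.89, 2 and 2.16 in saline. The groups overlapped for this ratio of a Kupffer cell gene to a gene of all macrophages. They also overlapped for Vsig4 per count of Csf1r (0.880 and 0.723 against 0.948, 0.875 and 1.01). Cd5l had 2.14 and 2.71 counts per count of Csf1r with APAP, against 1.93, 1.62 and 1.69 in saline. Marco had 2.18 and 2.78 with APAP, against 0.635, 0.191 and 0.240 in saline. For Cd5l and Marco, both APAP libraries were above every saline library on this scale.

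**Figure D3:**
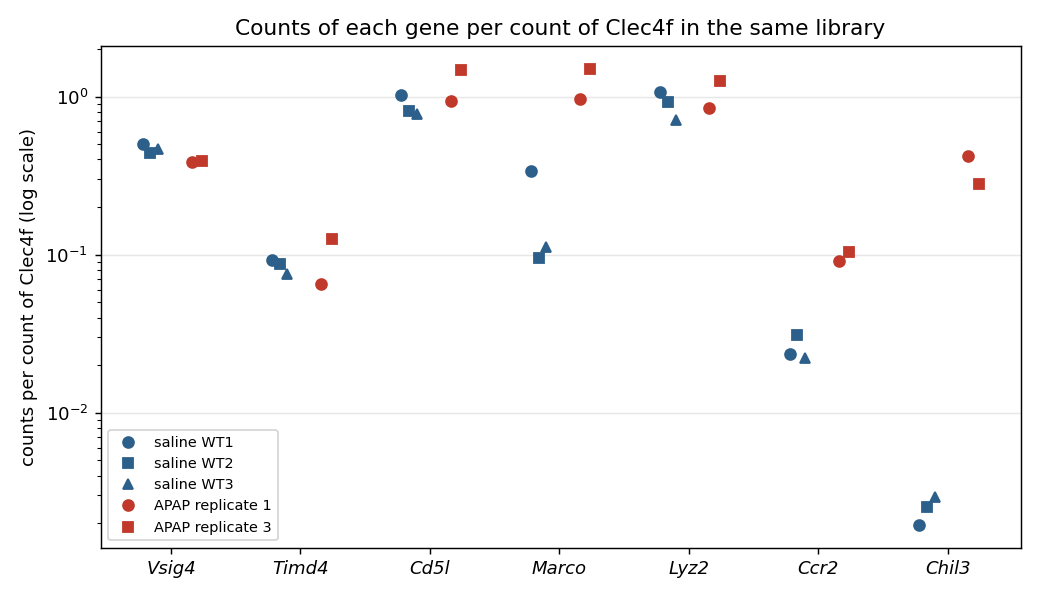
Counts of each gene per count of Clec4f in the same library (log scale), saline in blue and APAP in red. Marco, Ccr2 and Chil3 were above all saline libraries in both APAP libraries (Chil3 0.422 and 0.279 against 0.00195 to 0.00294), Vsig4 was below them, and Timd4, Cd5l and Lyz2 overlapped.

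Chil3 and Ccr2 moved apart from Lyz2, the abundant member of their list. Chil3 had 0.495 and 0.223 counts per count of Lyz2 with APAP, against 0.00182, 0.00275 and 0.00412 in saline. Ccr2 had 0.107 and 0.0828 counts per count of Lyz2 with APAP, against 0.0218, 0.0340 and 0.0309 in saline. Lyz2 made up 93.4% to 95.9% of the summed counts of the 5 monocyte genes in saline, and 60.2% and 73.9% with APAP, where Chil3 made up 29.8% and 16.5%. Within the Kupffer cell genes, Marco made up 3.93% to 11.4% of the summed counts in saline, and 28.7% and 33.5% with APAP.

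The ratio of the summed monocyte to the summed Kupffer cell genes, in which the abundant genes weigh most, was 0.421 and 0.378 with APAP, and 0.379, 0.405 and 0.308 in saline. The groups overlapped, and the mean log2 ratio differed by 0.14. With 1 library left out the difference lay between 0.026 (without WT3) and 0.23 (without WT2), with 0.065 without APAP replicate 1 and 0.22 without APAP replicate 3. With each gene given equal weight, as the mean of its log2 CPM, the difference was 1.87. Versions that leave out 1 gene were chosen after seeing the data, and gave 0.58 without Marco and 2.83 without Lyz2.

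Levels can be compared between genes per kilobase of transcript. In saline livers the order by mean CPM per kilobase was Lyz2 (59.7 ± 13.4, SD, n = 3), Cd5l (37.4 ± 7.73), Clec4f (35.2 ± 2.96), Vsig4 (28.6 ± 4.19), Marco (8.40 ± 6.67), Timd4 (3.41 ± 0.44), Ly6c2 (1.67 ± 1.10), Ccr2 (0.385 ± 0.040), Chil3 (0.140 ± 0.030) and Gpnmb (0.0981 ± 0.0647). Lyz2 was thus the member with the highest level in livers without injury, where Ccr2 and Chil3 were near the bottom. Neighbors whose ranges overlapped were Cd5l and Clec4f, Clec4f and Vsig4, Marco and Timd4, Ly6c2 and Ccr2, and Chil3 and Gpnmb. With APAP the order was Lyz2 (58.2 ± 28.4, SD, n = 2), Marco (46.8 ± 24.5), Cd5l (43.2 ± 22.5), Clec4f (28.6 ± 6.71), Vsig4 (19.2 ± 4.59), Chil3 (15.5 ± 0.85), Timd4 (3.27 ± 2.14), Ly6c2 (2.38 ± 0.070), Ccr2 (1.21 ± 0.39) and Gpnmb (0.536 ± 0.399). Marco moved from the fifth to the second place and Chil3 from the ninth to the sixth. Each of the first 4 genes of that order overlapped in range with its neighbor among them. So did Vsig4 and Chil3, and Timd4 and Ly6c2, so these places are not resolved.

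Close relatives exist for 3 members, whose reads may have been counted together. Of the 50-base words of the longest protein-coding transcript, 33.0% in Ly6c2, 29.4% in Chil3 and 15.4% in Lyz2 occur in other genes, mostly in Ly6c1, Chil4 and Lyz1. The paralogs were at low levels. Chil4 measured 0.0588 and 0 CPM with APAP against 1.43, 0.332 and 0 CPM in saline. The groups overlapped for Chil4, without a rise like that of Chil3. Lyz1 was at 0.646 and 0.494 CPM against 0.359, 0.731 and 0.334 CPM, and Ly6c1 was at 1.82 and 2.35 CPM against 0.359, 1.26 and 3.87 CPM. Ly6c1 was in the same range as Ly6c2, whose counts are uncertain for that reason. Chil1, a chitinase-like gene that shares no 50-base word with other genes, was at 1.65 and 1.61 CPM with APAP against 0.269, 0.465 and 0.267 CPM (log2 fold change 2.24, adjusted p = 0.0647). The other members shared at most 2.27% of their words, and none overlapped another gene.

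The genes with the profile most like a member were sought by the root mean square difference of centered log2 CPM over the 5 libraries, in 12680 genes whose mean reached 1 CPM. Among the nearest to Clec4f were Ube2d3 (0.0183) and Fam210b (0.0301). Ube2d3, which encodes a ubiquitin-conjugating enzyme used in most cells, measured 135.7 and 195.8 CPM with APAP against 211.3, 180.7 and 211.3 CPM in saline. The nearest to Chil3 were Fam83a (0.393), Gm10440 (0.408) and Arc (0.415), all with 0 counts in the saline libraries.

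Other genes of Kupffer cells were called in both directions. Of 14 tested, 1 was called higher and 1 lower, with a median log2 fold change of 0.12 (0.31 without APAP replicate 1, -0.32 without APAP replicate 3 and 0.027 without WT2). Hmox1, which degrades heme and is induced by oxidative stress also in hepatocytes, was at 89.9 and 121.6 CPM with APAP against 28.1, 16.1 and 41.4 CPM (log2 fold change 1.89, adjusted p = 0.0358). Slc40a1, the iron exporter ferroportin, was at 64.5 and 94.4 CPM against 238.2, 174.6 and 229.2 CPM (log2 fold change -1.43, adjusted p = 0.0338). Neither call depends on scaling, but that of Slc40a1 was lost with any 1 library left out, and that of Hmox1 with any but WT3.

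Other monocyte genes were more often higher than lower, with 18 of 20 log2 fold changes above 0 and a median of 1.37, and 5 were called higher and none lower. Thbs1, which encodes the matrix protein thrombospondin 1, was at 37.0 and 54.9 CPM with APAP against 0.896, 3.06 and 2.27 CPM (log2 fold change 4.44, adjusted p = 0.00474), and was called with any 1 library left out. F13a1, the transglutaminase of clot formation, was at 5.52 and 4.33 CPM against 0.538, 0.465 and 1.002 CPM (log2 fold change 2.86, adjusted p = 0.0211). Ccr1, a receptor for inflammatory chemokines, was at 5.23 and 4.14 CPM against 0.179, 0.0664 and 0.668 CPM (log2 fold change 3.88, adjusted p = 0.0329). The others called were Ifitm6 (adjusted p = 0.0428) and Clec4e, the receptor Mincle, with 15 and 48 counts against 2, 2 and 3, at least 8.63-fold higher against the floor averaged over the saline libraries. Leaving out APAP replicate 1, APAP replicate 3, WT1 or WT2 left Thbs1 as 1 call of the list, and leaving out WT3 left 3.

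Of 10 tested genes of lipid-associated and scar macrophages, 4 were called higher and none lower, with a median log2 fold change of 0.99. Spp1, which encodes osteopontin and is also made by bile duct cells, was at 276.3 and 313.1 CPM with APAP against 40.1, 42.6 and 37.7 CPM (log2 fold change 2.88, adjusted p = 0.00183). Mmp12, the macrophage elastase, was at 9.46 and 25.4 CPM against 0.627, 0.199 and 0.401 CPM (log2 fold change 5.43, adjusted p = 0.00559). Both were called with any 1 library left out. Cd63, a tetraspanin of lysosomes, had a log2 fold change of 2.32 (adjusted p = 0.00666, lost without APAP replicate 1), and Lgals3, which encodes galectin 3, one of 1.28 (adjusted p = 0.0487, lost with any 1 library left out). Trem2, a lipid receptor that marks these cells, measured 0.940 and 0.804 CPM with APAP against 0.986, 1.06 and 0.868 CPM in saline, so the groups overlapped. The number called higher was 2 without APAP replicate 1 and 3 with any other library left out.

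Genes of all macrophages were mostly near the middle of the distribution. Of 16 tested, 1 was called, with a median log2 fold change of 0.16. Cd14, the co-receptor for lipopolysaccharide, was at 206.0 and 52.2 CPM with APAP against 5.56, 2.86 and 13.9 CPM (log2 fold change 4.11, adjusted p = 0.0292), and lost its call without APAP replicate 1, WT1 or WT2. Csf1r was at 25.97 and 44.4 CPM with APAP against 48.7, 39.3 and 42.0 CPM (log2 fold change -0.30, adjusted p = 0.549). Adgre1, which encodes F4/80, was at 6.70 and 16.3 CPM against 14.5, 13.5 and 12.96 CPM (log2 fold change -0.25, adjusted p = 0.726).

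**Figure D4:**
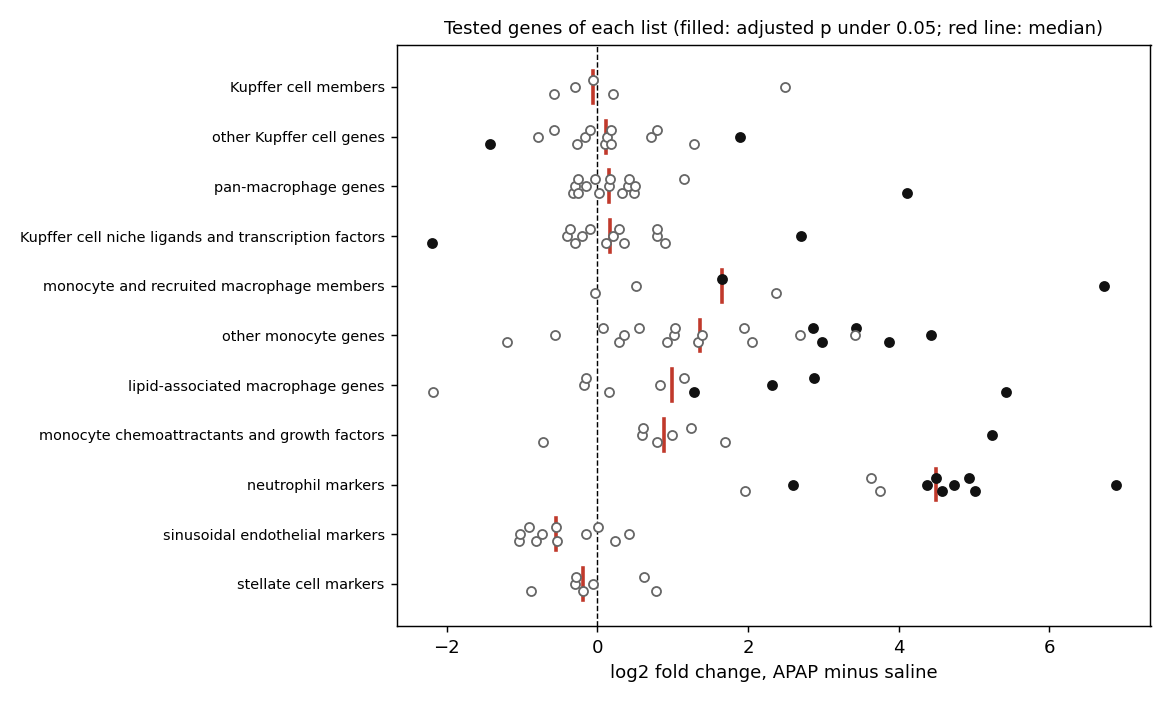
Fitted log2 fold change (APAP minus saline) of the tested genes of each list, filled where the adjusted p was under 0.05, with a red line at the median of the list. The medians were -0.06 for the Kupffer cell members, 0.12 for other Kupffer cell genes, 1.65 for the monocyte members, 1.37 for other monocyte genes and 4.50 for neutrophil markers.

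Of the signals that draw monocytes or sustain them, 8 of 13 genes passed the filter, 1 was called and the median log2 fold change was 0.89. Ccl7, a ligand of CCR2, had 40 and 32 counts with APAP against 1, 1 and 0 counts, and was at least 9.71-fold higher against the floor averaged over the saline libraries (adjusted p = 0.0173, lost without APAP replicate 1, APAP replicate 3 or WT2). Ccl2, the other main ligand of CCR2 and not called, was at 3.82 and 4.14 CPM against 2.51, 0.930 and 0.334 CPM (log2 fold change 1.69, adjusted p = 0.210). Over 14 niche ligands and transcription factors of Kupffer cells, the median log2 fold change was 0.16 (-0.11 without APAP replicate 3, 0.014 without WT2), and 1 was called higher. Id1, a target of BMP signals, was at 132.6 and 63.7 CPM with APAP against 11.4, 14.9 and 18.6 CPM (log2 fold change 2.71, adjusted p = 0.0104, lost without WT2).

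Of the markers of other cells, those of neutrophils moved with the comparison. Of 13 neutrophil markers, 11 passed the filter and 8 were called higher, with a median log2 fold change of 4.50 (4.37 with Camp, which had 0 counts in saline, at its lower bound). Their summed level was 139.1 and 86.7 CPM with APAP against 6.90, 5.85 and 9.95 CPM in saline. S100a9, the neutrophil and monocyte calcium-binding protein, was at 41.5 and 30.3 CPM against 1.61, 1.13 and 2.004 CPM (log2 fold change 4.50, adjusted p = 0.00181). The next by adjusted p were Retnlg (log2 fold change 4.73), S100a8 (5.02) and Csf3r (2.59). Their number called fell to 2 without WT2 and to 3 without APAP replicate 1. Chil3 had 0.598 and 0.759 counts per count of S100a9 with APAP against 0.111, 0.176 and 0.133 in saline, so this ratio was higher in both APAP libraries than in any saline library. The part of neutrophils in the levels of Chil3, Lyz2 and the other monocyte genes was not tested. None of the sinusoidal endothelial (11 tested), stellate (7), lymphocyte (5), hepatocyte (4) and dendritic cell (1) markers was called, with medians of -0.55, -0.19, -0.94, -0.67 and -0.31. The 2 with the highest mean level in each list were Ehd3 (log2 fold change -0.91) and Ptprb (-0.74), Dcn (-0.19) and Reln (-0.06), Cd79a (0.35) and Cd79b (-0.94), and Alb (-0.70) and Apoa1 (0.57), and the dendritic cell gene was Clec9a. The summed level was 228.2 and 334.2 CPM with APAP against 453.8, 448.4 and 274.4 CPM for the endothelial markers, and 5.99 and 6.24 CPM against 10.3, 11.4 and 5.88 CPM for lymphocyte markers.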

How the data were processed

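RNA-Seq libraries of mouse liver were sequenced by the authors on an Illumina NovaSeq and aligned with HISAT2. The deposited counts are whole reads per gene and are not normalized. Labels name GRCm38 and mm10, and the annotation, strand setting and program versions are not given in the sources used here. The 5 columns of FPKM, which the authors made with Stringtie and deposited beside the counts, were not used. Tests were run on the counts with edgeR 4.0.16 in R 4.3.3 (filterByExpr with a minimum count of 10 and a minimum total of 15, TMM, glmQLFit and glmQLFTest) and DESeq2 1.42.0 as an alternative, all fitted on the whole table. The Methods give at least 3 biological repeats for all experiments but do not say for each library which animal it came from, so p-values measure the spread between these libraries. Within groups, pairs of libraries differed by 44.1 to 93.7 times the sampling variance (chi-square per degree of freedom). The floor and the counting intervals cover counting error only, since reads carry no molecular identifiers.

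The tests were first run on simulated counts with known changes. Positions are those of the deposited table, which GENCODE M21 shares for 9 members (all but Lyz2). Transcript lengths and shared words came from GENCODE M21 and upstream sequences from RefSeq (Python 3.11.15, matplotlib 3.10.9). Each library was left out in turn, and other factors, filters and tests were tried. The members and gene lists were chosen with earlier results of these data known. Named are all members and their paralogs, the 4 called genes with the smallest adjusted p of each list or otherwise the 2 with the highest mean, and the 3 genes most like Clec4f and Chil3. Clec4e, Ccl2, Csf1r, Adgre1 and Trem2 were chosen after their values were seen. Not all genes that this rule names are reported here.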

Additional observations from a re-analysis of the deposited data

How the results depend on the processing

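Chil3 was higher and called under every alternative in which it passed the filter. With at least 10 counts required in every library, Chil3, Ly6c2 and Gpnmb could not be tested. The count of members called was 4 by the likelihood ratio test, by the exact test and by the thresholds of the study (unadjusted P under 0.05 and a fold change of at least 1.5), and between 1 and 2 with a library left out. Of the 92 macrophage genes tested, 17 were called, against 27 by the likelihood ratio test, 27 by the exact test, 37 by the thresholds of the study, and 5 to 15 with a library left out. Of the 82 that are no members, 15 were called, against 23, 23, 33 and 4 to 14. Over all genes, 993 were called, against 1835 by the likelihood ratio test, 1776 by the exact test, 2093 by DESeq2, 3228 by the thresholds of the study, and 165 (without WT2) to 922 with a library left out. The log2 ratio of the summed genes, 0.14, was 1.87 as a mean of log2 CPM, and, in versions chosen after seeing the data, 0.58 without Marco and 2.83 without Lyz2. No result reversed its direction past a threshold. No paired analysis was possible because the names of the saline libraries carry no number that ties them to a sample. With 2 APAP libraries and a biological coefficient of variation of 33.3%, differences of Ly6c2, Timd4 and Gpnmb were estimated with standard errors between 0.44 and 0.81 on the log2 scale.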
